A study of Mus musculus with 6 samples.

Results

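Cytochrome P450 genes of families 1, 2 and 3 were examined in the livers of Src-transgenic and wild-type mice. Members were all genes whose mouse symbol begins with Cyp1, Cyp2 or Cyp3 and a letter, with the Cyp2b subfamily left out, and which an array probe named through its RefSeq transcript. They were 36 of the 13971 named genes on the array, read by 39 probes. Of the 55 protein-coding genes that the symbol rule covers in the RefSeq table, 19 had no probe matched in this way, among them Cyp2a4, Cyp2a12, Cyp2c50, Cyp2c69, Cyp2d10, Cyp2u1 and Cyp3a41b, and these were not analysed here.

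Both groups were C57BL/6 mice aged 14 months, with 3 arrays each. Wild-type livers carry the numbers 1, 2 and 4. Transgenic livers carry the numbers 1, 3 and 4 and carry a human gene for c-Src, a cytoplasmic tyrosine kinase, under the metallothionein promoter of the mouse. The series asked which genes Src might alter in a line in which some mice develop liver tumours, and its text reports that the arrays with the missing numbers gave weak signals and were set aside. That promoter is active in many tissues and can be induced with zinc, which the text describes as usually not needed. Zinc use in these 6 mice, the founder lines and any tumour in the tissue are not stated.

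P450s are haem enzymes of the endoplasmic reticulum that take electrons from P450 reductase and insert an oxygen atom into drugs, steroids, fatty acids and pollutants. Family 1 answers to the aryl hydrocarbon receptor, and many genes of families 2 and 3 answer to the nuclear receptors CAR and PXR. In mouse liver several of them also differ between the sexes, because male and female patterns of growth hormone release act on hepatocytes through STAT5. Most are expressed in hepatocytes, many of them towards the central vein of the lobule.

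Every level below is the normalized log2 signal of a probe, so a difference of 1 is a doubling, and levels of different probes are not compared. The arrays had median signals of 53.8 to 93.4 (wild-type) and 94.8 to 117 (transgenic) before normalization, and 62.6% to 71.7% of probes lay above background, defined from the control spots. Src read 6.65, 7.21 and 6.62 in wild-type and 9.67, 8.48 and 7.71 in transgenic livers, without overlap. An exact two-sided permutation test of these values gave p = 0.1, the smallest that 3 against 3 arrays allow, and the log2 difference was 1.79, or 2.25 without transgenic replicate 4. The metallothionein genes Mt1 and Mt2 also differed without overlap, by 3.71 ± 0.53 and 4.88 ± 0.44 (SE), higher in transgenic livers. The reason for this difference, and its part in the P450 values, was not tested. Transgenic replicate 4 stood apart: of 4 Y-linked genes, 3 (Uty, Ddx3y, Eif2s3y) failed to exceed background there while exceeding it on the other 5 arrays. Kdm5d, the remaining Y-linked gene, went the other way and was highest there, at 9.03 against 8.32 to 8.74. No label states a mouse's sex. The counts of calls, and the changes that this array moved most, are therefore also given without it, and the plot of log2 changes shows each member both ways. The hepatocyte markers Alb, Ttr, Apoa1, Tat, Serpina1c and Fgb were above background on all 6 arrays, and their mean deviation from the wild-type mean was -0.05, 0.08 and -0.02 on transgenic replicates 1, 3 and 4. Quantile normalization gives the brightest probes nearly the same values on every array, so these deviations cannot show whether hepatocyte content was steady. With each array scaled to its median instead, the median change of these markers was -0.62. In whole liver, fewer cells of a type and less RNA per cell cannot be told apart.

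Few P450 members separated the transgenic from the wild-type livers, and the widest departures were on a single transgenic array. No member passed limma's test over all features at an adjusted p under 0.05, in either direction, and of all 34175 features 0% passed. At an unadjusted p under 0.05 there was 1 member higher in transgenic livers, Cyp2g1, and 1 lower, Cyp1a2, each 2.78% of the members, against 4.37% of all features higher and 2.72% lower. Both groups were fully separate for 4 members, with the transgenic group higher for 2 (Cyp2g1 and Cyp3a41a) and lower for 2 (Cyp1a2 and Cyp2d9), 5.56% each way against 10.1% and 5.90% of all features. These shares of the members were near or below those of all features. The median log2 change was -0.04 over the members and 0.02 over all features, with 16 members positive and 20 negative. The 16 include Cyp2s1, which was above background on no array.

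The choice of scaling shifted the whole family. With each array scaled to its median in place of quantile normalization, the median change of the members was -0.31 and 25 of the 36 were negative, while the hepatocyte marker median moved from 0.04 to -0.62 and the all-feature median from 0.02 to -0.08. Over all features the same step turned the split at an unadjusted p under 0.05 from 1493 higher and 931 lower to 943 higher and 1312 lower. The direction of small changes in bright genes therefore depends on the scaling.

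Without transgenic replicate 4, 1 member was higher at an unadjusted p under 0.05 (Cyp3a41a) and 0 were lower, against 2.79% and 2.25% of features, and the median change was 0.03. Transgenic replicates 1 and 3 both exceeded the wild-type range for 5 members and lay below it for 2, or 13.9% and 5.56%, against 15.0% and 10.4% of features. So few arrays give wide intervals: the 95% interval of limma included 0 for 34 of the 36 members and lay within 1 either way for 15.

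**Figure D1:**
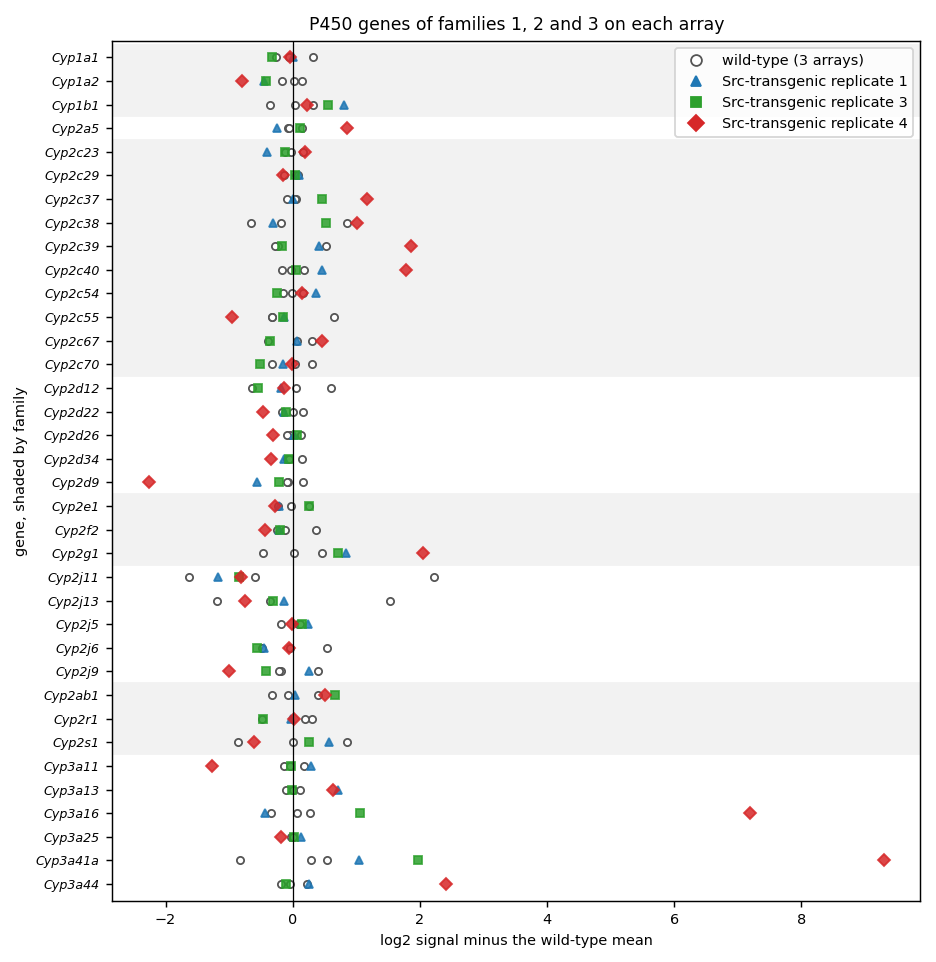
Normalized log2 signal of each of the 36 P450 genes on each array, as the difference from that gene's wild-type mean (x axis, log2), with genes shaded by family (y axis). Open circles are the 3 wild-type arrays and filled marks the 3 transgenic arrays; replicate 4 lies far to the right for Cyp3a41a, Cyp3a16 and Cyp3a44 and far to the left for Cyp2d9 and Cyp3a11.

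**Figure D2:**
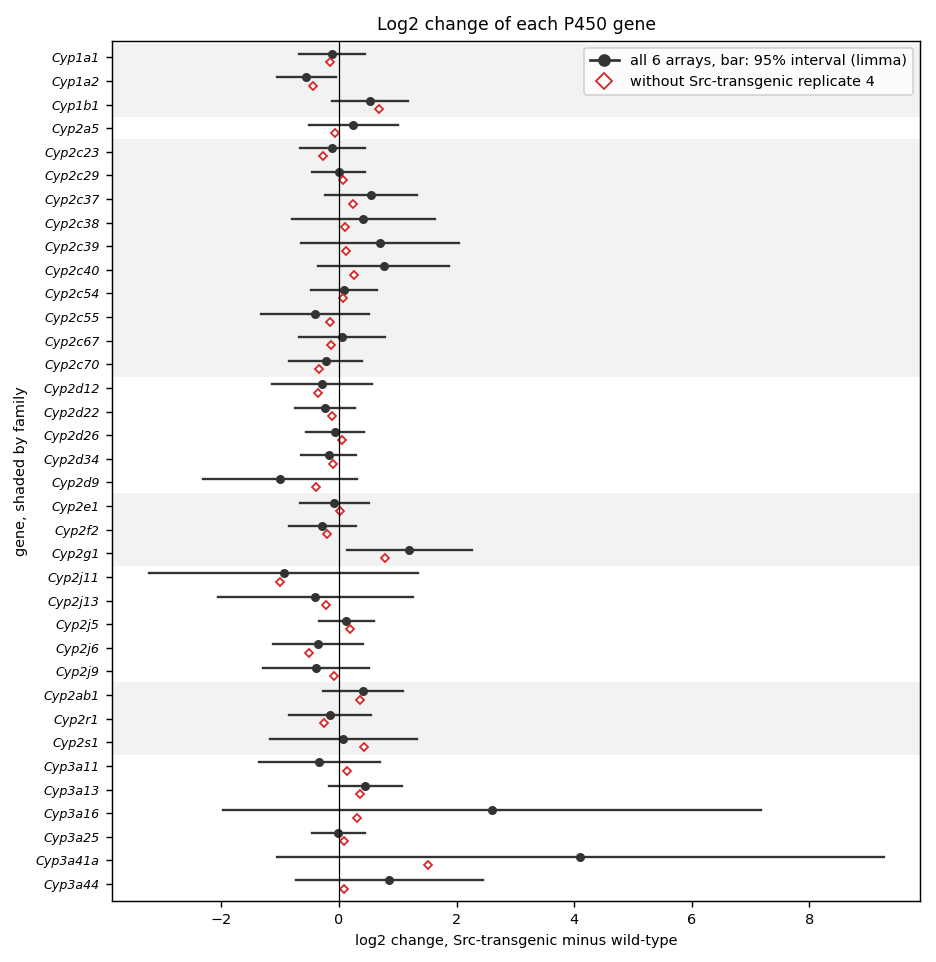
Log2 change between transgenic and wild-type livers for each gene (x axis), with the 95% interval of limma as a bar, and the same change without transgenic replicate 4 as an open diamond. Among the 36 genes the interval excludes 0 for Cyp2g1 and Cyp1a2, and the diamonds of Cyp3a16, Cyp3a44, Cyp2c39, Cyp2c40 and Cyp2d9 lie much closer to 0 than the changes over all arrays.

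Family 1 holds the aryl hydrocarbon hydroxylases. Cyp1a2, the constitutive hepatic member that oxidizes caffeine and arylamines, read 13.07, 13.26 and 13.39 in wild-type and 12.78, 12.83 and 12.44 in transgenic livers. The groups did not overlap, and replicate 4 was the lowest. The change was -0.56 ± 0.21 (SE), or 1.47-fold lower, with a limma p of 0.0364 and an adjusted p of 0.69. It was -0.43 without replicate 4, -0.38 after correction for the brightness of neighbouring spots and -0.90 with median scaling. Over the arrays left out in turn it ran from -0.64 to -0.43, and its unadjusted p was under 0.05 only with wild-type replicate 1 left out.

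Cyp1a1, the gene most strongly induced by aryl hydrocarbon receptor ligands, read 7.69, 8.08 and 7.49 in wild-type and 7.76, 7.43 and 7.71 in transgenic livers. The groups overlapped, with transgenic replicate 3 just below and wild-type replicate 2 above all other arrays, with a change of -0.12 ± 0.23 (SE) and a 95% interval of -0.69 to 0.45. Cyp1b1, an enzyme of oestrogen and procarcinogen oxidation found mostly outside hepatocytes, read 6.22, 5.82 and 6.49 against 6.98, 6.73 and 6.40. Replicates 1 and 3 lay above the wild-type arrays and replicate 4 within them, and the change was 0.52 ± 0.27 (limma adjusted p = 0.69), or 0.68 without replicate 4. On transgenic replicate 3 the spots around Cyp1a1 were unusually bright or dim.

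The receptor and partner genes of family 1 were measured as well. Ahrr, the repressor of the aryl hydrocarbon receptor, differed by 0.40 ± 0.21 (SE) and Tiparp, a receptor target, by -0.41 ± 0.28, or by 0.32 and -0.25 without replicate 4. Nqo1, a quinone reductase induced by the same receptor and by NRF2, read 7.43, 7.10 and 7.13 in wild-type and 7.52, 6.88 and 10.53 in transgenic livers. Only transgenic replicate 4 was high for Nqo1, and without it the difference was -0.02. None of the 5 genes of this arm passed at an unadjusted p under 0.05, with or without replicate 4. The 300 bases around the listed start of Cyp1a2 are shown because it was the member of the family whose groups separated; they span 250 bases before the start and 50 after it, are from RefSeq (GRCm38.p6), and would carry motif matches in capitals.
Cyp1a2, chr9:57683606-57683905, minus strand: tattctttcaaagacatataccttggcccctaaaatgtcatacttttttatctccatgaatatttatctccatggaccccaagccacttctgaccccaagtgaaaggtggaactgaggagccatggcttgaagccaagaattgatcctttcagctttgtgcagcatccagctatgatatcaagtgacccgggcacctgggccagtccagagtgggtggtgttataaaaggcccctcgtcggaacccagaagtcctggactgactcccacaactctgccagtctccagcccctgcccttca

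The receptor core GCGTG, searched on both strands, was not in this window of Cyp1a2 and was in 6 of the 30 member genes with a listed promoter, among them Cyp1a1 and Cyp1b1, against 32.4% of all 32851 promoters in the table. For this and the other motifs, members were counted as genes with a match in any listed promoter, and the background as single promoters. The response elements known for the Cyp1a pair lie further upstream.

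The subfamilies of the cluster on chromosome 7 have separate substrates. Cyp2g1, an enzyme known from olfactory mucosa, read 8.75, 9.23 and 9.67 in wild-type and 10.06, 9.93 and 11.26 in transgenic livers, without overlap. The change was 1.20 ± 0.44 (SE), or 2.29-fold, with a limma p of 0.0323 and an adjusted p of 0.69. The change was 0.77 without replicate 4 and ran up to 1.44 over the arrays left out. Its unadjusted p was no longer under 0.05 without transgenic replicate 4, wild-type replicate 1 or wild-type replicate 2. Cyp2a5, the coumarin hydroxylase, read 12.49, 12.50 and 12.71 against 12.33, 12.68 and 13.42, so that only replicate 4 lay above the wild-type range. Its change of 0.24 ± 0.31 (SE) was -0.07 without replicate 4. Cyp2a4, a near-identical paralog with higher expression in females, was not among the matched probes, and whether the Cyp2a5 probe reads it too is unknown.

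Cyp2f2, the naphthalene-activating enzyme of airway cells that is also expressed in periportal hepatocytes, read 13.40, 13.88 and 13.28 in wild-type and 13.31, 13.31 and 13.08 in transgenic livers. Cyp2e1, the pericentral enzyme of ethanol and acetaminophen oxidation, read 14.88, 15.36 and 15.08 against 14.88, 15.36 and 14.83. Both genes overlapped between the groups, with changes of -0.28 ± 0.23 and -0.08 ± 0.24 (SE) and 95% intervals of -0.85 to 0.28 and -0.67 to 0.51. Both probes are bright, and their changes depend on the scaling: with median scaling they were -0.61 and -0.62. The Cyp2e1 probe lay in a patch of unusual brightness on 3 of the 6 arrays, and its change turned to 0.45 after local correction. The zonal marker lists hold no P450s. Of 7 pericentral genes 0 passed at an unadjusted p under 0.05, against 4.37% of all features higher and 2.72% lower, but without replicate 4 the transcription factor gene Tbx3 was lower at that level, with -1.21 ± 0.33 (SE) against -0.87 ± 0.39 over all arrays. Of 7 periportal genes Pigr was higher (0.63 ± 0.22) and Hal lower (-0.61 ± 0.22) at that level, both in patches, with -0.09 and 0.20 after local correction. Without replicate 4 they had 0.56 and -0.50 and neither passed.

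The Cyp2c subfamily had 10 measured genes of a cluster on chromosome 19 that oxidize arachidonic acid, retinoids and bile acids. No member passed an unadjusted p under 0.05 over all 6 arrays, against 4.37% of all features higher and 2.72% lower. Some members departed on replicate 4. Cyp2c29, a main constitutive member, read 13.20, 13.02 and 13.23 in wild-type and 13.24, 13.19 and 12.99 in transgenic livers. The change was -0.01 ± 0.19 (SE) with a 95% interval of -0.46 to 0.45, and -0.36 with median scaling. Cyp2c70, which makes the muricholic acids of rodents from chenodeoxycholic acid, had -0.22 ± 0.26, and the epoxygenase gene Cyp2c23 had -0.12 ± 0.23. Over the 10 genes the median change was 0.07, with 6 positive and 4 negative. At an unadjusted p under 0.05 Cyp2c37 was higher with transgenic replicate 1 left out (0.81) and Cyp2c40 with transgenic replicate 3 left out (1.12). Cyp2c39 was higher after local correction (1.31). In these settings 1263, 1053 and 1189 of the 34175 features were higher at the same level.

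Cyp2c40, known for higher expression in females, read 11.51, 11.71 and 11.37 in wild-type and 11.98, 11.58 and 13.31 in transgenic livers on its brighter probe. Its further probe read 9.37, 8.83 and 8.95 against 9.49, 8.86 and 12.99. On both probes replicate 4 was the highest of the 6 arrays and replicate 3 lay within the wild-type range. The changes were 0.76 ± 0.46 and 1.40 ± 1.05 (SE), and the first was 0.25 without replicate 4. Cyp2c39, a retinoic acid hydroxylase, followed with 6.91, 6.87 and 7.67 against 7.56, 6.97 and 9.01, a change of 0.70 ± 0.55 that was 0.12 without replicate 4. Its spot lay in a patch on wild-type replicate 4.

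Cyp2c37 was the remaining Cyp2c gene with 2 probes. The brighter read 12.65, 12.51 and 12.64 in wild-type and 12.60, 13.07 and 13.77 in transgenic livers, and the further probe 11.79, 12.00 and 11.78 against 12.02, 12.39 and 13.07. Replicates 3 and 4 lay above the wild-type arrays on both probes, and replicate 1 did so on the further probe alone. The changes were 0.54 ± 0.32 and 0.64 ± 0.30 (SE), and the first was 0.23 without replicate 4. Cyp2c38, Cyp2c54, Cyp2c55 and Cyp2c67 overlapped between the groups, with changes of -0.42 (Cyp2c55) to 0.41 (Cyp2c38). Cyp2c genes are close paralogs, so a probe may read transcripts of its neighbours, and Cyp2c40 and Cyp2c67 are a pair of this kind.

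The Cyp2d subfamily, a cluster on chromosome 15 related to the human debrisoquine hydroxylase, had negative changes in all 5 measured genes, with a median of -0.24 that was -0.51 under median scaling and -0.12 without replicate 4, where Cyp2d26 turned to 0.05; local correction turned Cyp2d22 to 0.08. Cyp2d9, the testosterone 16-alpha-hydroxylase with higher expression in males, read 12.98, 12.97 and 13.22 in wild-type and 12.49, 12.85 and 10.80 in transgenic livers. The groups did not overlap, yet replicates 1 and 3 lay within 0.5 of the lowest wild-type array while replicate 4 lay 1.70 below the next lowest array, or 3.24-fold. The change was -1.01 ± 0.54 (SE; limma adjusted p = 0.70), and -0.39 without replicate 4. Cyp2d22 had -0.24 ± 0.21, Cyp2d34 -0.18 ± 0.19, Cyp2d12 -0.29 ± 0.35 and Cyp2d26 -0.07 ± 0.20, all with overlap, and the further Cyp2d26 probe gave 0.05 ± 0.17. The Cyp2d9 window is shown as the male-biased member measured.
Cyp2d9, chr15:82452127-82452426, plus strand: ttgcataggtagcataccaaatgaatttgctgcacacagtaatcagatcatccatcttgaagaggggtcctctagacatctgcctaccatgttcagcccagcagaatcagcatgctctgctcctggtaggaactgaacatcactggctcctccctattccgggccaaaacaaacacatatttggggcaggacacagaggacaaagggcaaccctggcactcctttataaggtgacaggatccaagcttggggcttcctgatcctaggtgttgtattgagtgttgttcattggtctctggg

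None of the 4 motifs searched on both strands (GCGTG, the STAT motif TTCNNNGAA, the HNF4 motif CAAAGTCCA and the nuclear receptor hexamer AGGTCA) matched in this window of Cyp2d9. The STAT motif was found in 1 of 30 member genes, Cyp2j11, against 8.3% of all promoters.

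The Cyp2j subfamily holds epoxygenases of arachidonic acid. Cyp2j5, its main liver and kidney member, read 11.92, 11.66 and 11.96 in wild-type and 12.08, 12.00 and 11.83 in transgenic livers, a change of 0.12 ± 0.19 (SE) with overlap. Cyp2j6 and Cyp2j9 had -0.36 ± 0.32 and -0.39 ± 0.37. Cyp2j11 was above background on wild-type replicate 4 alone, where it read 7.58 against 3.73 to 4.76 on the other 5 arrays. Against the transgenic group, dim on all its arrays, the wild-type mean was at least 1.06-fold higher, and without wild-type replicate 4 the change turned from -0.94 to 0.17. Cyp2j13 likewise stood out on 1 array, at 8.12 on wild-type replicate 2 against 5.40 to 6.45 elsewhere, where its spot lay in a patch.

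Among the remaining Cyp2 genes, Cyp2r1, a vitamin D 25-hydroxylase of the liver, read 10.33, 10.22 and 9.54 in wild-type and 10.00, 9.56 and 10.04 in transgenic livers, a change of -0.16 ± 0.29 (SE). Cyp2ab1 was above background on 1 wild-type and 2 transgenic arrays, with 0.40 ± 0.28. Cyp2s1, an epithelial member, was above background on no array, so its change was not measured.

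The Cyp3a subfamily, 6 measured genes on chromosome 5 that oxidize steroids and a large share of drugs, split on transgenic replicate 4. Cyp3a41a, expressed in female mouse liver, read 4.55, 5.66 and 5.93 in wild-type and 6.42, 7.35 and 14.68 in transgenic livers. The groups did not overlap, and replicate 4 exceeded the next array by 7.32, or 160-fold. The change was 4.10 ± 2.13 (SE; limma adjusted p = 0.69). Without replicate 4 it was 1.51 ± 0.53, with an unadjusted p under 0.05. Both changes rest partly on wild-type signals near background. Before normalization wild-type replicate 1 was below the background level (16.71 against 33) and wild-type replicate 2 just above it (44.76 against 44.2). Cyp3a16, a fetal and later female-biased gene, was above background on replicate 4 alone, where it read 10.33 against 2.70 to 4.19 on the other 5 arrays. Cyp3a16 was at least 1.13-fold higher in the transgenic group as a mean, a bound on measured means of 3.14 and 5.74 that rests on that array.

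Cyp3a44, also female-biased, read 8.95, 8.69 and 8.55 in wild-type and 8.99, 8.63 and 11.14 in transgenic livers. Replicate 4 lay 2.16 above the next array, or 4.45-fold, and without it the change went from 0.86 ± 0.66 to 0.08 ± 0.25 (SE). Cyp3a11, the main PXR-inducible drug hydroxylase and the mouse counterpart of human CYP3A4, ran the opposite way on that array. It read 13.04, 12.72 and 12.82 against 13.15, 12.83 and 11.59, so that replicate 4 was 1.13 below the next lowest array. The change of Cyp3a11 was -0.34 ± 0.42 over all arrays and 0.13 ± 0.24 without replicate 4.

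Cyp3a25 read 12.80, 12.83 and 12.83 in wild-type and 12.95, 12.84 and 12.63 in transgenic livers. The change was -0.01 ± 0.18 (SE) with a 95% interval of -0.46 to 0.44, and -0.36 with median scaling. Cyp3a13, which is expressed in gut and liver, read 10.57, 10.46 and 10.35 against 11.17, 10.45 and 11.09. Replicates 1 and 4 lay above the wild-type range and replicate 3 within it, with a change of 0.45 ± 0.26 (limma adjusted p = 0.70). Cyp3a41a, Cyp3a41b, Cyp3a16 and Cyp3a44 are near-identical in sequence, and a probe for any of them may read several.

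**Figure D3:**
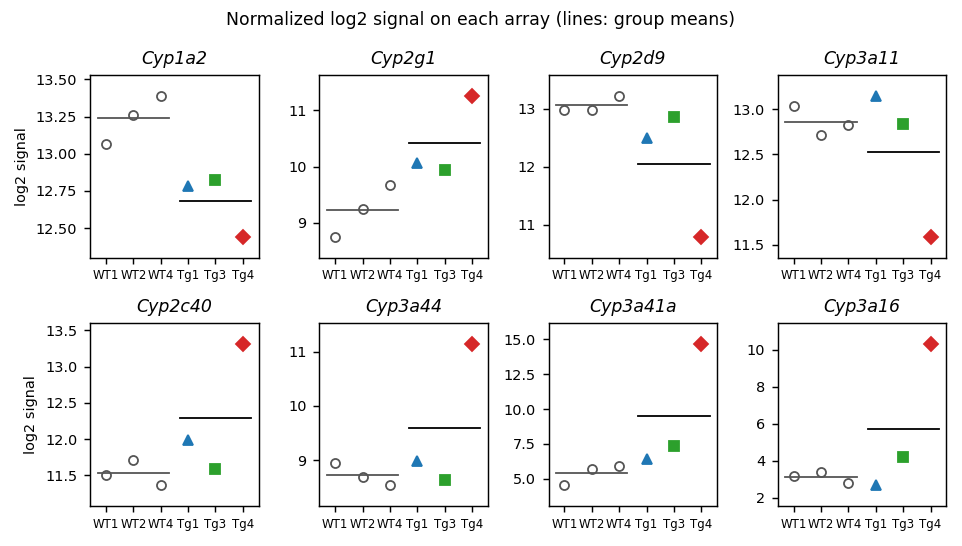
Normalized log2 signal (y axis, log2, separate scale per gene) of 8 P450 genes on the wild-type (WT) and transgenic (Tg) arrays, with the replicate number on the x axis and lines at the group means. The groups do not overlap for Cyp1a2, Cyp2g1, Cyp2d9 and Cyp3a41a; for Cyp2c40, Cyp3a44, Cyp3a41a and Cyp3a16 replicate 4 is the high point and for Cyp2d9 and Cyp3a11 the low point.

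Promoter windows of 3 Cyp3a genes are shown because their signals parted on replicate 4: Cyp3a41a and Cyp3a44 were high there and Cyp3a11 low. Capitals mark the HNF4 motif CAAAGTCCA and the hexamer AGGTCA. Cyp3a44 and Cyp3a11 were picked for this comparison after their values were seen.
Cyp3a41a, chr5:145720087-145720386, minus strand: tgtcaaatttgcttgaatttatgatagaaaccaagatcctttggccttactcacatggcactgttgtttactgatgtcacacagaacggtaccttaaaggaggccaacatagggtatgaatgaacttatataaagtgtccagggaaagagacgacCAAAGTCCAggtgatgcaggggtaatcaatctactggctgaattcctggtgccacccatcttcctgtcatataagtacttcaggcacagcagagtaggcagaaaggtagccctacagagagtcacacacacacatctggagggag
Cyp3a44, chr5:145805825-145806124, minus strand: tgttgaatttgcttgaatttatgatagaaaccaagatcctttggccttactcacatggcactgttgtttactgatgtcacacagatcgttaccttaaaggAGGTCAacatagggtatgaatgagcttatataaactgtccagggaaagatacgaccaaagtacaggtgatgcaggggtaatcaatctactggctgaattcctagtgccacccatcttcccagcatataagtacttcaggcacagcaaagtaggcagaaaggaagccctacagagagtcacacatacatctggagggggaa
Cyp3a11, chr5:145879805-145880104, minus strand: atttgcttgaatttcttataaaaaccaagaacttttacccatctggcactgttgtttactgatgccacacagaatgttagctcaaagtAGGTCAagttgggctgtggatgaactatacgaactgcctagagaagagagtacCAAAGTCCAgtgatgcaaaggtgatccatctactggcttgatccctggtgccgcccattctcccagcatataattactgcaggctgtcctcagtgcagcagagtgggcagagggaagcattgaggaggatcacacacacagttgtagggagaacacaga

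Over a global alignment the windows of Cyp3a41a and Cyp3a44 shared 93% of positions, whereas Cyp3a11 shared 70.4% with Cyp3a41a and 71.2% with Cyp3a44. The window of Cyp3a16 shared 92.1% with that of Cyp3a41a and 93.4% with that of Cyp3a44. The HNF4 motif was found in 6 of 30 member genes (Cyp2c40, Cyp2c67, Cyp2c70, Cyp3a11, Cyp3a16 and Cyp3a41a) against 0.475% of all promoters, and the hexamer in 9 of 30 against 16.3%. Here too members were counted by gene and the background by promoter. Of the genes with the HNF4 motif, Cyp2c40, Cyp3a16 and Cyp3a41a were above the other arrays on replicate 4 by more than 1. Cyp3a11 was below them by more than 1, and Cyp2c67 and Cyp2c70 were neither. Paralogs share promoter sequence, so these genes are not separate occurrences. A link between the motif and the values on replicate 4 was not tested.

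More P450 genes stood apart on transgenic replicate 4 than on any other array. It was the highest of the 6 arrays for 11 members and the lowest for 12, against 1 to 8 and 3 to 7 on the other arrays. These counts were not made over all features. It lay above the wild-type range for 36.1% of the members and below it for 33.3%, against 27.6% and 26.8% of all features. By more than 1 on the log2 scale, it exceeded the other 5 arrays for 6 members (Cyp3a41a, Cyp3a16, Cyp3a44, Cyp2c39, Cyp2c40 and Cyp2g1) and lay under them for 2 (Cyp2d9 and Cyp3a11). These 8 were 22.2% of the members, against 3.65% of all features on the same array. The probes of Cyp3a41a, Cyp3a16 and Cyp3a44 may read one another's transcripts, and Cyp2c39 and Cyp2c40 are paralogs. The 8 are therefore not separate occurrences, and Cyp3a16 was above background on replicate 4 alone. By more than 1, wild-type replicates 1, 2 and 4 stood apart for 1 member each and transgenic replicates 1 and 3 for 0. The median absolute deviation from the wild-type mean over the members was 0.56 on replicate 4 and 0.25 and 0.26 on replicates 1 and 3, against 0.38, 0.30 and 0.34 over all features.

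**Figure D4:**
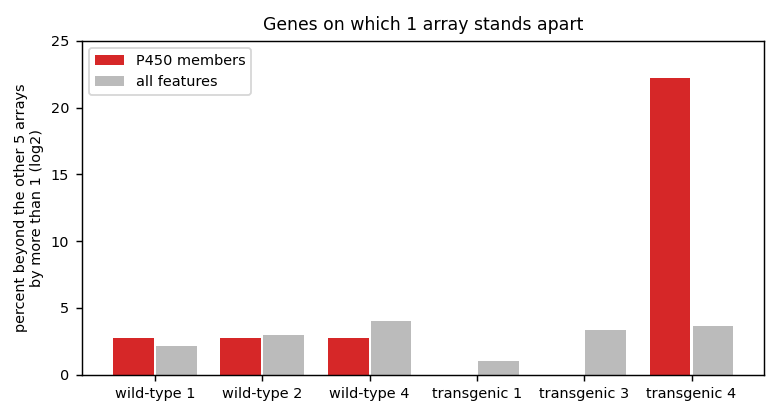
Percent of the 36 P450 members (red) and of all 34175 features (grey) for which an array lay more than 1 (log2) above or below the other 5 arrays (y axis), for each array (x axis). Transgenic replicate 4 reaches 22.2% of the members against 3.65% of the features, and no other array exceeds 2.78% of the members. Some of these members are close paralogs whose probes may not read separate transcripts.

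The members listed by their known sex bias followed the same array. The 5 female-biased genes with a matched probe (Cyp2c39, Cyp2c40, Cyp3a16, Cyp3a41a and Cyp3a44) had positive changes, as had 17674 of the 34175 features. Their median was 0.86, or 0.25 without replicate 4. Cyp3a16 was above background on replicate 4 alone, so its sign and size rest on that array. At an unadjusted p under 0.05, 0 of the 5 passed over all arrays and 1, Cyp3a41a, without replicate 4, against 4.37% and 2.79% of all features higher. The other 4 were above background on at least 1 array of each group. Over these 4, the mean deviation from the wild-type mean was 0.54 on replicate 1, 0.44 on replicate 3 and 3.84 on replicate 4. For Cyp2d9, the male-biased gene measured, the deviations were -0.56, -0.21 and -2.26. The low signals of Uty, Ddx3y and Eif2s3y were on this same array, as was the high signal of Kdm5d, and their part in the group differences was not tested beyond leaving the array out.

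The partners and regulators of the P450s were described from a list of 43 genes, of which 40 had a matched probe. Of these, 1 (Jak2) was above background on no array. At an unadjusted p under 0.05 there was 1 higher (2.5%) and 2 lower (5%), against 4.37% and 2.72% of all features, and 0 passed the adjusted test over all features in limma. Without replicate 4 there were 0 higher (0%) and 1 lower (2.5%), Nr0b2, against 2.79% and 2.25% of all features. The median change was -0.01. Por, the reductase that passes electrons to every microsomal P450, read 11.68, 11.95 and 11.57 in wild-type and 11.91, 12.35 and 12.71 in transgenic livers. Replicates 3 and 4 lay above the wild-type arrays, with a change of 0.59 ± 0.27 (SE) that was 0.39 without replicate 4. Cyb5r3 and Pgrmc1, a reductase of cytochrome b5 and a P450-binding haem protein, had -0.34 ± 0.22 and 0.07 ± 0.20, or -0.23 and 0.18 without replicate 4. Of the genes of haem synthesis, which supplies the prosthetic group, Alad had 0.36 ± 0.18 and Fech -0.24 ± 0.18, which were 0.37 and -0.21 without replicate 4, and after local correction Alad had 0.12.

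Nr0b2, which encodes the repressor SHP, a brake on several nuclear receptors, read 10.43, 10.30 and 9.05 in wild-type and 8.36, 8.54 and 8.29 in transgenic livers. The groups did not overlap, and the change was -1.53 ± 0.39 (SE; limma adjusted p = 0.69). It was -1.48 without replicate 4. Esr1, the oestrogen receptor, was above background on all 3 transgenic and no wild-type array and was at least 1.12-fold higher (limma adjusted p = 0.69). Its unadjusted p was under 0.05 over all arrays and not without replicate 4. Ppara, the fatty acid receptor, had -0.40 ± 0.22 without overlap, and -0.36 without replicate 4. Its spot lay in a patch on 3 arrays, and the change was -0.93 after local correction. Nr1i3 and Nr1i2, which encode CAR and PXR, had 0.24 ± 0.27 and -0.21 ± 0.29, with overlap. Without replicate 4 they had -0.0034 and -0.47.

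In the growth hormone arm Stat5a read 7.57, 7.58 and 7.25 in wild-type and 6.75, 7.07 and 6.89 in transgenic livers. The groups did not overlap, with a change of -0.56 ± 0.20 (SE; limma adjusted p = 0.69). The change kept this value to 2 decimals without replicate 4, with an unadjusted p no longer under 0.05. Cux2, a transcription factor with female-biased expression in mouse liver, had 0.61 ± 0.32, and 0.53 without replicate 4. Socs2, a feedback inhibitor of growth hormone signalling, read 8.90, 8.71 and 7.89 against 8.56, 8.60 and 11.07, high on replicate 4 alone, and its change was 0.91 ± 0.73 with that array and 0.08 without. Of the liver-enriched factors Cebpa had -0.51 ± 0.22, Foxa3 0.70 ± 0.31 and Hnf4a 0.45 ± 0.21. The groups did not overlap for Cebpa or for Hnf4a, and Hnf4a had -0.06 after local correction. Without replicate 4 the changes were -0.49 (Cebpa), 0.75 (Foxa3) and 0.31 (Hnf4a).

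**Figure D5:**
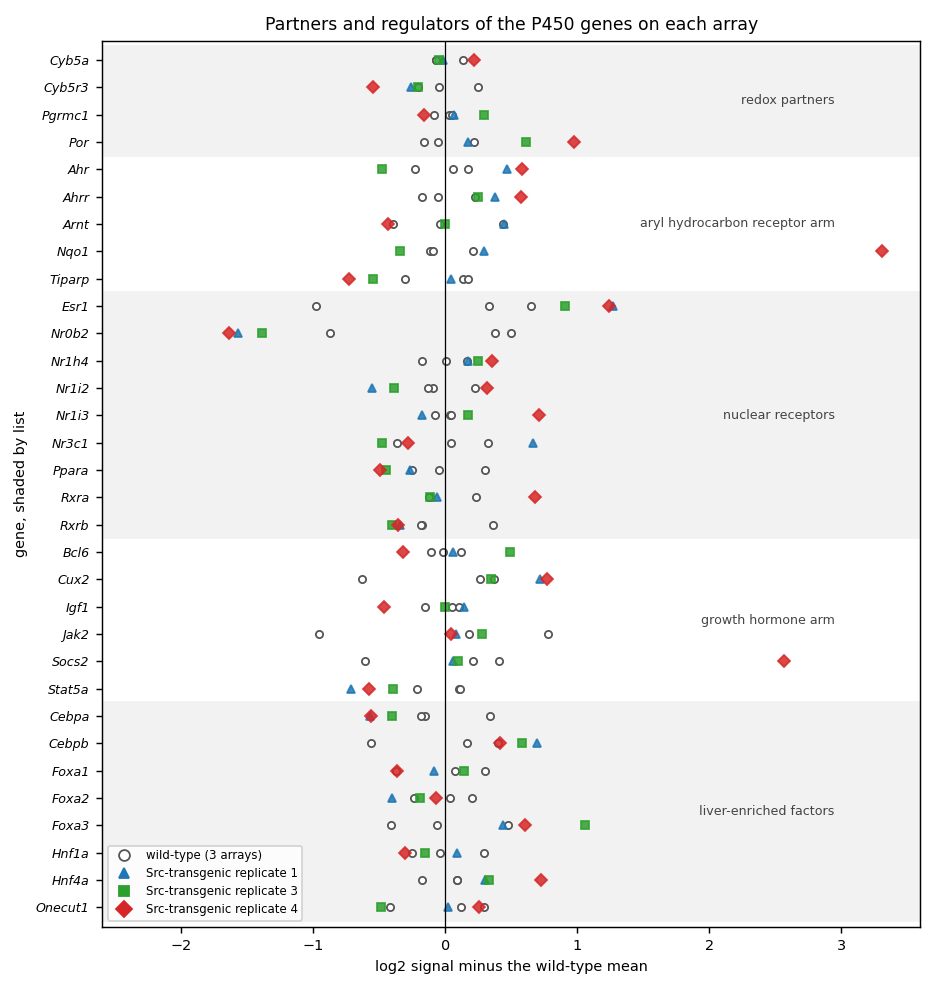
Normalized log2 signal of the partner and regulator genes, those of haem synthesis left out, on each array, as the difference from the wild-type mean (x axis, log2), with genes shaded by list (y axis). Nr0b2 lies left of all wild-type arrays on each transgenic array, while Nqo1 and Socs2 lie far to the right on replicate 4 alone.

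Of 35 listed markers of other cell types, 29 had a matched probe, and 1 of these, Col1a2, was above background on no array. The 29 gave 0 genes higher and 2 lower (Cd3g at -0.74 ± 0.29 and Nkg7 at -0.56 ± 0.22, SE) at an unadjusted p under 0.05, or 0% and 6.9% against 4.37% and 2.72% of all features. Without replicate 4 there was 1 higher, the cholangiocyte keratin Krt7 at 1.16 ± 0.41, against 2.79% of all features. There were 3 lower, with the collagen gene Col3a1 at -0.77 ± 0.29 beside Cd3g and Nkg7, against 2.25%. Krt7 read 6.61, 6.86 and 6.87 in wild-type and 7.31, 8.57 and 7.09 in transgenic livers. Its change over all arrays was 0.88, falling to 0.42 with transgenic replicate 3 left out and to 0.55 under local correction. Over all arrays, cholangiocyte markers had 2 positive and 2 negative changes, and T, B and NK cell markers 3 and 3. Stellate cell and matrix markers had 1 positive and 5 negative, Col1a2 among the negative, and endothelial markers also had 1 and 5. Kupffer cell and macrophage markers had 3 and 1, and intestinal epithelium markers 2 and 1. The mean deviation of the 29 markers from the wild-type mean was -0.08, -0.20 and 0.12 on transgenic replicates 1, 3 and 4. On replicate 4 the 4 macrophage markers measured deviated by 0.73 on average, against -0.05 and -0.29 on replicates 1 and 3, and their part in the P450 values of that array was not tested.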

How the data were processed

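Liver RNA from 6 mice was labelled with biotin by linear amplification and detected with Alexa-647 streptavidin on 1-colour arrays, per the labels' protocols. The deposited intensity is a spot's signal, per the file headers; how the software made it is not given. A deposited value table was used as an alternative.

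Of 35587 spots, 620 control spots were left out. Lower signals were raised to a floor, the 1st percentile of the positive signals (4.72 to 5.75), and log2 values were quantile normalized. A probe was above background if brighter than the level that 570 control spots set, their median and 3 scaled median absolute deviations together (33 to 50.6). Accessions without versions were matched to RefSeq transcripts (GRCm38.p6), which named 14763 probes; for a gene with several, the brightest was used. The comparison used lmFit and eBayes of limma 3.58.1 (R 4.3.3), two-sided, with Benjamini-Hochberg adjustment over 34175 features, after a test on simulated data. For a gene above background on no array of a group, "at least" gives a bound, the brighter group's mean against the higher, per array, of the dim signal and the lowest signal above background. The labels number the livers within each group and do not say more on their origin, so p-values measure the spread between these samples. The number of arrays limits the precision.

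The members, lists and tests were chosen with earlier results of these data known. All members are named; array values are given for those with the smallest p, a set fixed by role and, beyond that rule, those with a departure on 1 array, and for the partner lists values of the 3 genes with the smallest p and a few others. A gene of the haem synthesis list is not reported here. The alternatives were other scalings, the authors' value table, an offset, a filter on dim probes, a trended prior, array weights, the mean of several probes, correction of each spot by the median deviation of spots within 4 rows and columns (a patch is where it exceeds 0.5), a replicate block and each array left out. The tests of further probes, the list counts without transgenic replicate 4 and the mean over female-biased members above background in both groups were added after seeing the data. Promoter windows were aligned with Biopython 1.88 and figures drawn with matplotlib 3.10.9.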

Additional observations from a re-analysis of the deposited data

How the results depend on the processing

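No P450 member passed an adjusted p under 0.05 in limma under any of the alternatives, and the count over all features was 0, except 1 unnamed probe without wild-type replicate 1 and another without transgenic replicate 4 (range 0 to 1 over the arrays left out). The count of members at an unadjusted p under 0.05 was small throughout. The lower count went from 1 to 2, by the addition of Cyp2d9, under median scaling, 75th percentile scaling and the authors' value table, and to 0 under local patch correction and with the replicate block. The higher count was 2 with array weights, which added Cyp1b1. Leaving out single arrays gave 0 to 3 higher and 0 to 1 lower members, beside 953 to 1560 higher and 641 to 1331 lower of the 34175 features. In the main fit 1493 features were higher and 931 lower, and under median scaling 943 and 1312. They were 1094 and 1290 under 75th percentile scaling and 943 and 1309 with the authors' value table. With array weights they were 1641 and 1143, under local correction 1189 and 1432, and with the replicate block 679 and 669. Cyp2g1 was not among the higher members without wild-type replicate 1, wild-type replicate 2 or transgenic replicate 4, nor was it after local correction, which put Cyp2c39 there. Of the 6 arrays left out in turn, Cyp1a2 was lower at that level only without wild-type replicate 1; without transgenic replicate 3 Cyp2d9 was the lower member. Replicate numbers 1 and 4 occur in both groups, but the labels do not say that they pair mice, and deviations of same-numbered arrays from their group means correlated at 0.06 for each pair. The median change of the members was -0.31 under median scaling and with the authors' value table, -0.29 under 75th percentile scaling, 0.0805 with the replicate block, and -0.0685 to 0.0372 over the arrays left out. The cause of these shifts was not tested.

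Some small changes turned in direction. Under median scaling these were Cyp2a5 (-0.0836), Cyp2c54 (-0.14), Cyp2c67 (-0.0678), Cyp2j5 (-0.17) and Cyp2s1 (-0.18). In the same order they were -0.0653, -0.12, -0.0495, -0.15 and -0.16 under 75th percentile scaling and -0.0832, -0.14, -0.0674, -0.17 and -0.18 with the authors' value table. Local correction turned Cyp1a1 (0.0049), Cyp2c67 (-0.11), Cyp2c70 (0.0153), Cyp2d22 (0.078) and Cyp2e1 (0.45). The replicate block turned Cyp1a1 (0.14), Cyp2c70 (0.0739), Cyp2d12 (0.14), Cyp2j13 (0.32) and Cyp2r1 (0.0871), and array weights Cyp2c29 (0.0593), Cyp2c67 (-0.0119), Cyp2s1 (-0.0261) and Cyp3a25 (0.0237). Over the arrays left out the range was -0.25 to 0.0435 for Cyp1a1, -0.0652 to 0.48 for Cyp2a5, -0.27 to 0.0314 for Cyp2c23, -0.0707 to 0.0682 for Cyp2c29, -0.0516 to 0.25 for Cyp2c54, -0.15 to 0.26 for Cyp2c67, -0.61 to 0.0123 for Cyp2d12, -0.14 to 0.0479 for Cyp2d26, -0.25 to 0.0443 for Cyp2e1, -1.76 to 0.17 for Cyp2j11, -0.996 to 0.36 for Cyp2j13, -0.35 to 0.50 for Cyp2s1, -0.65 to 0.13 for Cyp3a11 and -0.0815 to 0.0766 for Cyp3a25. Cyp2s1 was above background on no array, and Cyp2j11 on 1 and Cyp2ab1 on 3. The filter on dim probes left 32 members.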
